A study of Homo sapiens with 24 samples.

Results

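This report describes 39 genes of the broader glucocorticoid response in LREX' human prostate cancer cells. Of these, 35 were listed as known targets of the glucocorticoid receptor, and 4 (SPSB1, EMP1, PGLYRP2 and PTGER4) were selected on their measured response in these arrays. A probe carrying the gene's symbol was found for 38 genes, and for 32 of them at least 1 probe was detected (detection p under 0.05) on at least 3 of the 24 arrays. These 32 genes, 28 known targets and the 4 response-chosen ones, stand among 12895 genes measured in the series. Tests are given for the 28 known targets only, since values of these arrays selected the other 4.

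LREX' is a prostate cancer line grown out of a tumour that resisted the antiandrogen enzalutamide. All 8 groups held the same line in steroid-depleted medium, with 3 cultures each, treated for 8 h and hybridised to 1 array per culture. The groups were DMSO vehicle, the androgen dihydrotestosterone (DHT) at 1 nM, the synthetic glucocorticoid dexamethasone (Dex) at 10 nM or 100 nM, enzalutamide alone at 10 µM, and enzalutamide together with DHT or with either dose of Dex. The labels give no enzalutamide dose for the 3 combinations. A single line and a single time point were studied, and in bulk RNA of this kind fewer responding cells and less RNA per cell cannot be told apart.

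The glucocorticoid receptor is a hormone-activated transcription factor that enters the nucleus when cortisol or dexamethasone binds it. It binds a palindromic DNA element built of AGAACA-like repeats, and the target genes of glucocorticoids and androgens overlap in part. Its known targets serve fuel use in liver, muscle and fat, brake inflammation by raising factors that destroy cytokine mRNAs, slow the cell cycle, and tune signalling through G proteins and ion channels. Enzalutamide blocks the action of androgens and is not a ligand of the glucocorticoid receptor at therapeutic doses.

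The promoters of 3 members are shown because these were the known targets higher in all 4 comparisons of Dex with its matched control: both doses against vehicle and both doses under enzalutamide. Each run is a 300-base window of RefSeq GRCh38.p14, from 250 bases before to 50 after the gene's start, written 5′ to 3′ on the gene's strand. Capitals mark GC boxes (GGGCGG, or CCGCCC for the other strand), the letters read by Sp1-type factors; no other motif searched was found in the 3 windows.
MAOA: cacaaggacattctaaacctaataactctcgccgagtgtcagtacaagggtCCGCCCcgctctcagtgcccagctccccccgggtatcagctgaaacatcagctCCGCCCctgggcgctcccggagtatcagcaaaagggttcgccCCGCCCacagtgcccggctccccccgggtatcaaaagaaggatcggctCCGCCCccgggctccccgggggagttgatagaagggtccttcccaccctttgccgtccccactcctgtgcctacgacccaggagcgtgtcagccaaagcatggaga
PHLDA1: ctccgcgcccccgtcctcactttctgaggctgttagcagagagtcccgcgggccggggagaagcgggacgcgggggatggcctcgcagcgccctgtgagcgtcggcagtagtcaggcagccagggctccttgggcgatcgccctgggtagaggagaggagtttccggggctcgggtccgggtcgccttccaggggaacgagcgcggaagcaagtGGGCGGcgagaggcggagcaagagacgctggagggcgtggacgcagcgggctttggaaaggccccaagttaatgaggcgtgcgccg
RGS2: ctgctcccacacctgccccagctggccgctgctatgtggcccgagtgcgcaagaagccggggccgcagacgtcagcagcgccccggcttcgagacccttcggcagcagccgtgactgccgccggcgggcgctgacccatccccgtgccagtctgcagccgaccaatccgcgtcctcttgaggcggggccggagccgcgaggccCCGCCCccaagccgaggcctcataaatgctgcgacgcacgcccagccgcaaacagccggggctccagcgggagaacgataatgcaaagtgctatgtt

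MAOA lies on the plus strand at chrX:43656049-43656348 and held 4 GC boxes, which begin 199, 146, 104 and 56 bases before the start. PHLDA1, on the minus strand at chr12:76031727-76032026, held 1 GC box 36 bases before the start. RGS2, on the plus strand at chr1:192808789-192809088, held 1 GC box 47 bases before it. Over 53 promoter windows of the 30 members that the RefSeq table holds, 31 (58.5%) carried a GC box, against 45.0% of 35116 windows of all genes. The receptor's palindrome, GNACA and TGTNC with any 3 letters between, was in 0 of the 53 windows and in 137 of the 35116 (0.39%). A half-site, AGAACA or its other strand TGTTCT, was in 5 (9.43%) of the member windows against 14.8% of all windows, and a TATA box (TATAAA or TTTATA) in 7 (13.2%) against 11.5%. Each motif was searched on both strands, and a half-site may overlap a palindrome. These are matches of letters near gene starts, and distant elements were not analysed here.

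The arrays were alike in quality, with median signals of 59.4 to 69.5, 19463 to 21017 detected probes, a median of 18 to 21 beads per probe, and correlations of 0.992 to 0.995 between arrays of a group. Luminal prostate markers KRT8, KRT18, HOXB13 and TMPRSS2 were detected on all 24 arrays and KLK2 on 15. The basal markers KRT5 and KRT14 and the markers COL3A1, PECAM1, CDH5, CD3E and SYP were detected on 0 arrays. COL1A1 was detected on 24 arrays, CD14 on 10, DCN on 7, ENO2 on 2, and PTPRC and CHGA on 1 each; the part of other cells in the results was not tested. Levels below are log2 of background-corrected, quantile-normalized probe signal, given for the 3 arrays of a group in the order of their replicate numbers, and they compare a probe only with itself. On this scale the faintest detected signals lay between 4.97 and 5.11. The number of arrays, 3 a group, limits the precision.

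Of the 32 measured members, 21 were detected on all 24 arrays by at least 1 probe, and 18 by the probe whose levels are given. PGLYRP2 and FGD4 were not detected on any vehicle array, and HIF3A was detected on 2 of them by its other probe only. The probes used for HIF3A and FGD4 passed the filter with 5 detected arrays each. The liver enzyme TAT, the phospholipid-binding protein ANXA1, the methyltransferase NNMT and the vasoconstrictor EDN1 were detected on 0 arrays. TFCP2L1, a transcription factor, was detected on 1 array, and PDK4, which restrains glucose oxidation, on 2. No level is given for these 6 genes, and none for MERTK2, whose symbol matched no probe.

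With 100 nM Dex, 8 of the 28 measured known targets were higher than with vehicle and 0 were lower (limma adjusted p under 0.05, the rule for every call below). Over all 12895 genes, 2.88% were called higher and 2.19% lower in the same comparison. The median log2 change was 0.21 over the 28 known targets and -0.014 over all genes. The 8 were S100P, GADD45B, RGS2, PHLDA1, CRISPLD2, ZFP36, MAOA and FGD4. Of these, FGD4 passed the detection filter only through the 100 nM Dex arrays, so its call and its place in the counts are conditional on that. By role they comprised 2 of 4 measured genes of signalling and protein turnover, 2 of 6 of growth arrest and survival, 2 of 4 of inflammation and mRNA decay, 1 of 8 of fuel and lipid metabolism, 1 of 5 of cytoskeleton and membrane, and 0 of 1 in transcription, where HIF3A, an oxygen-response factor, changed by 0.17. The set was assembled with results of these arrays known, so the count is a description of these genes and not independent evidence of their direction.

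**Figure D1:**
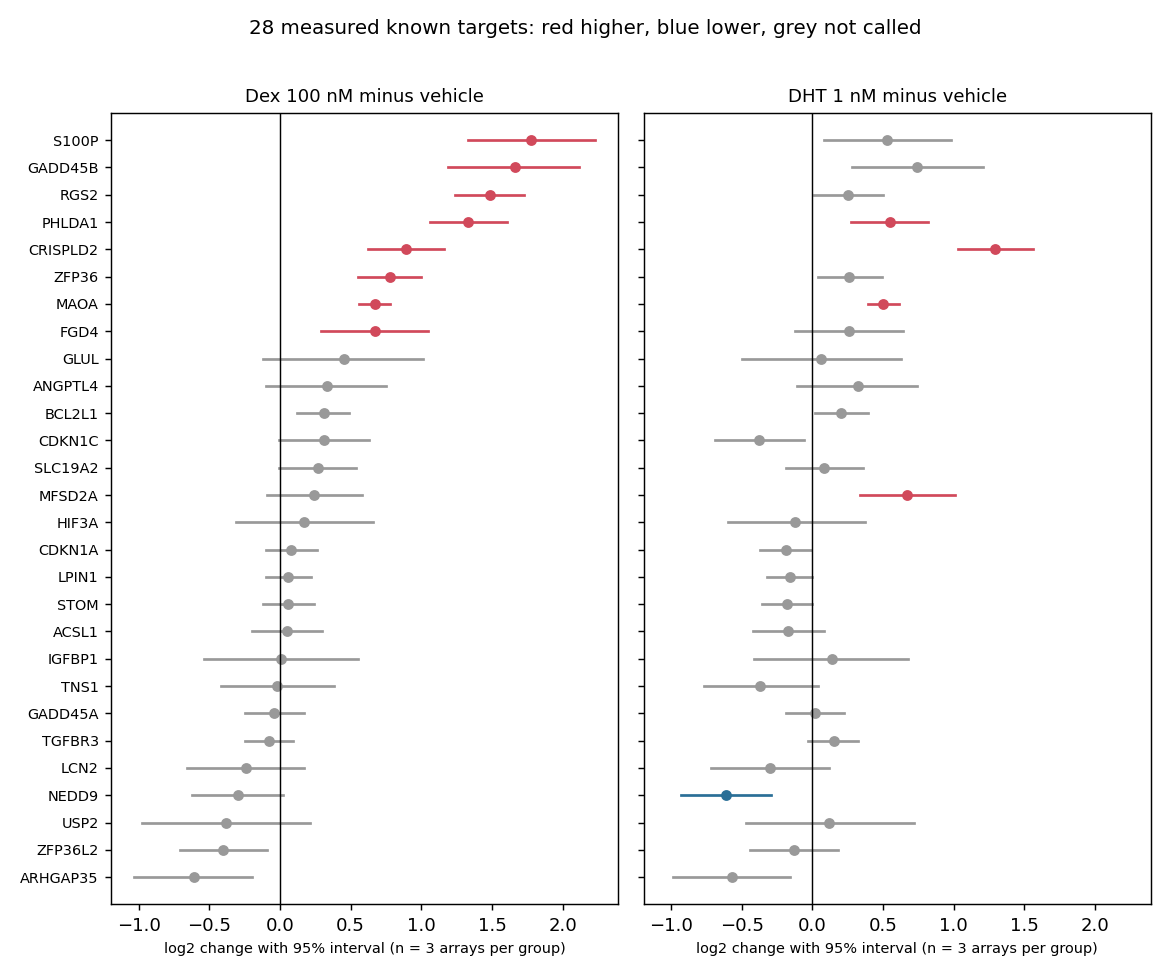
Log2 change (horizontal axis) of each of the 28 measured known targets (vertical axis) with 100 nM Dex and with 1 nM DHT against vehicle, with the 95% interval of the limma fit over 3 arrays a group. Red points were called higher, blue lower and grey not called. With Dex 8 genes were higher, led by S100P at 1.78, and with DHT 4 were higher, led by CRISPLD2 at 1.29. Among the 8, FGD4 passed the detection filter only through the 100 nM Dex arrays.

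Among the signalling genes, RGS2, which speeds the shut-off of G protein signals, read 7.55, 7.56 and 7.70 with vehicle, 8.44, 8.59 and 8.30 with 10 nM Dex, and 9.04, 9.15 and 9.09 with 100 nM Dex. The 3 groups did not overlap and rose in the order of the dose. RGS2 was 2.80-fold higher with 100 nM Dex than with vehicle (log2 change 1.49 ± 0.12 SE, n = 3 arrays a group, limma adjusted p = 2.41e-08). S100P, a calcium-binding protein of epithelial tumours, read 5.32, 5.41 and 5.74 with vehicle and 7.26, 7.22 and 7.32 with 100 nM Dex. It showed the largest change among the 28 genes, 3.43-fold (log2 1.78 ± 0.22, limma adjusted p = 1.27e-05). TGFBR3, the betaglycan co-receptor, and USP2, a deubiquitinase, changed by -0.08 and -0.38 on the log2 scale and were not called. Other detected USP2 probes changed by -0.01 ± 0.26 and 0.19 ± 0.17, also without a call.

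Of the growth arrest and survival genes, GADD45B, a stress-induced regulator of the cell cycle and of MAP kinases, read 5.03, 5.53 and 5.56 with vehicle and 7.08, 7.09 and 6.92 with 100 nM Dex, 3.15-fold higher (log2 1.66 ± 0.22, limma adjusted p = 4.62e-05). Its paralog GADD45A was not called, at 8.64, 8.82 and 8.88 with vehicle and 8.91, 8.52 and 8.79 with Dex. A second GADD45A probe, detected on all 24 arrays, changed by 0.32 ± 0.14 and was not called (limma adjusted p = 0.304). PHLDA1, a pleckstrin-homology protein linked to apoptosis, read 6.49, 6.73 and 6.48 with vehicle and 7.84, 8.04 and 7.83 with 100 nM Dex. PHLDA1 was 2.52-fold higher (log2 1.33 ± 0.13, limma adjusted p = 5.71e-07). The cyclin-dependent kinase inhibitors CDKN1A and CDKN1C changed by 0.08 and 0.31 and were not called. BCL2L1, which encodes the survival factor BCL-XL, read 11.29, 11.27 and 11.23 with vehicle and 11.45, 11.73 and 11.54 with Dex. Its groups did not overlap, but its change of 0.31 ± 0.09 missed the threshold (limma adjusted p = 0.0505). BCL2L1 was called higher under 4 of the 8 alternatives other than leaving out single arrays. These were the deposited normalized values, an offset of 50, detection on at least 6 arrays, and the block of title numbers. A second BCL2L1 probe, detected on all 24 arrays, changed by 0.22 ± 0.14 and was not called (limma adjusted p = 0.57).

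ZFP36 encodes tristetraprolin, which binds AU-rich elements and speeds the decay of cytokine mRNAs. It read 7.34, 6.98 and 7.52 with vehicle and 8.10, 7.98 and 8.10 with 100 nM Dex, 1.72-fold higher (log2 0.78 ± 0.11, limma adjusted p = 6.93e-05). Its relative ZFP36L2 changed by -0.40 ± 0.15 and was not called (limma adjusted p = 0.157). CRISPLD2, a secreted protein that binds bacterial lipopolysaccharide, lay near the detection limit with vehicle at 4.90, 5.08 and 5.12 and reached 5.80, 6.0 and 5.97 with 100 nM Dex. It was 1.86-fold higher (log2 0.89 ± 0.13, limma adjusted p = 0.000102). LCN2, an iron-chelator carrier of innate defence, changed by -0.24 and was not called.

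MAOA, the mitochondrial oxidase that degrades serotonin and noradrenaline, was the 1 metabolic gene called at this dose. It read 11.92, 11.93 and 11.95 with vehicle and 12.59, 12.59 and 12.63 with 100 nM Dex, 1.59-fold higher with the smallest standard error among the 8 called genes (log2 0.67 ± 0.05, limma adjusted p = 2.69e-08). The other 7 metabolic genes, among them ANGPTL4, an inhibitor of lipoprotein lipase, the thiamine transporter SLC19A2 and the growth factor carrier IGFBP1, changed by 0.01 to 0.45 with adjusted p-values from 0.315 upward. LPIN1, a phosphatidate phosphatase, read 10.30, 10.09 and 10.27 with vehicle and 10.30, 10.28 and 10.26 with Dex, a change of 0.06 with a 95% interval of -0.10 to 0.22. ACSL1, which activates long-chain fatty acids, changed by 0.05 (95% interval -0.20 to 0.30). GLUL, glutamine synthetase, changed by 0.45 with an interval of -0.12 to 1.01 that spans both no change and a doubling.

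FGD4, an activator of the small GTPase CDC42, was the only cytoskeletal gene called. It was undetected on all 3 vehicle arrays, at 4.93, 4.73 and 4.58, and detected on all 3 arrays with 100 nM Dex, at 5.14, 5.10 and 6.0. The difference was at least 1.32-fold (limma adjusted p = 0.0346), and it rested on single arrays. FGD4 was detected on 5 arrays, 3 of them with 100 nM Dex, so it passed the detection filter only through the group where it was high, and its test and its place among the 8 called genes are conditional on that. With detection required on at least 6 arrays it was not tested. Without the Dex array at 6.0 the log2 change fell from 0.67 to 0.38 (adjusted p = 0.168), and without vehicle replicate 2 or 3 it was not called either (adjusted p = 0.0996 and 0.145). The membrane protein STOM, the focal adhesion proteins NEDD9 and TNS1, and the GTPase regulator ARHGAP35 changed by 0.06 to -0.61 and were not called. A second STOM probe changed by 0.37 ± 0.17 and a second ARHGAP35 probe by 0.01 ± 0.18, also without a call.

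In all, 20 known targets were not called with 100 nM Dex, with log2 changes from -0.61 to 0.45 and adjusted p-values from 0.0505 to 0.996. For 16 of them the upper end of the 95% interval lay under 1.5-fold, and for 11 the whole interval lay within 1.5-fold both ways. At an unadjusted p under 0.05 the count was 11 of the 28 and 2122 of all genes. Set beside them, 20 glucocorticoid and hormone response genes listed as context, which were also written down with earlier results known, had 19 measured members, of which 19 were called higher with 100 nM Dex, with a median change of 0.93 against 0.21 for the 28 known targets. Of these 19, 16 were called higher with 10 nM Dex, 9 higher and 1 lower with DHT, and 17 higher with 100 nM Dex under enzalutamide. The shares of all genes were 1.36% higher with 10 nM Dex, and 2.45% higher and 1.81% lower with DHT. For 100 nM Dex under enzalutamide 2.23% of all genes were higher. Given how the context list was chosen, its counts and median describe that list only. Among 6 listed receptor and chaperone genes, 5 were measured and 1 was called with 100 nM Dex. This was NR3C1, the glucocorticoid receptor gene itself, 2.47-fold lower (limma adjusted p = 0.000125). NR3C1 was also lower with 10 nM Dex, 1.96-fold (limma adjusted p = 0.0065), and with DHT, 2.01-fold (limma adjusted p = 0.00205). With enzalutamide added to DHT it was 2.07-fold above DHT alone (limma adjusted p = 0.00155).

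**Figure D2:**
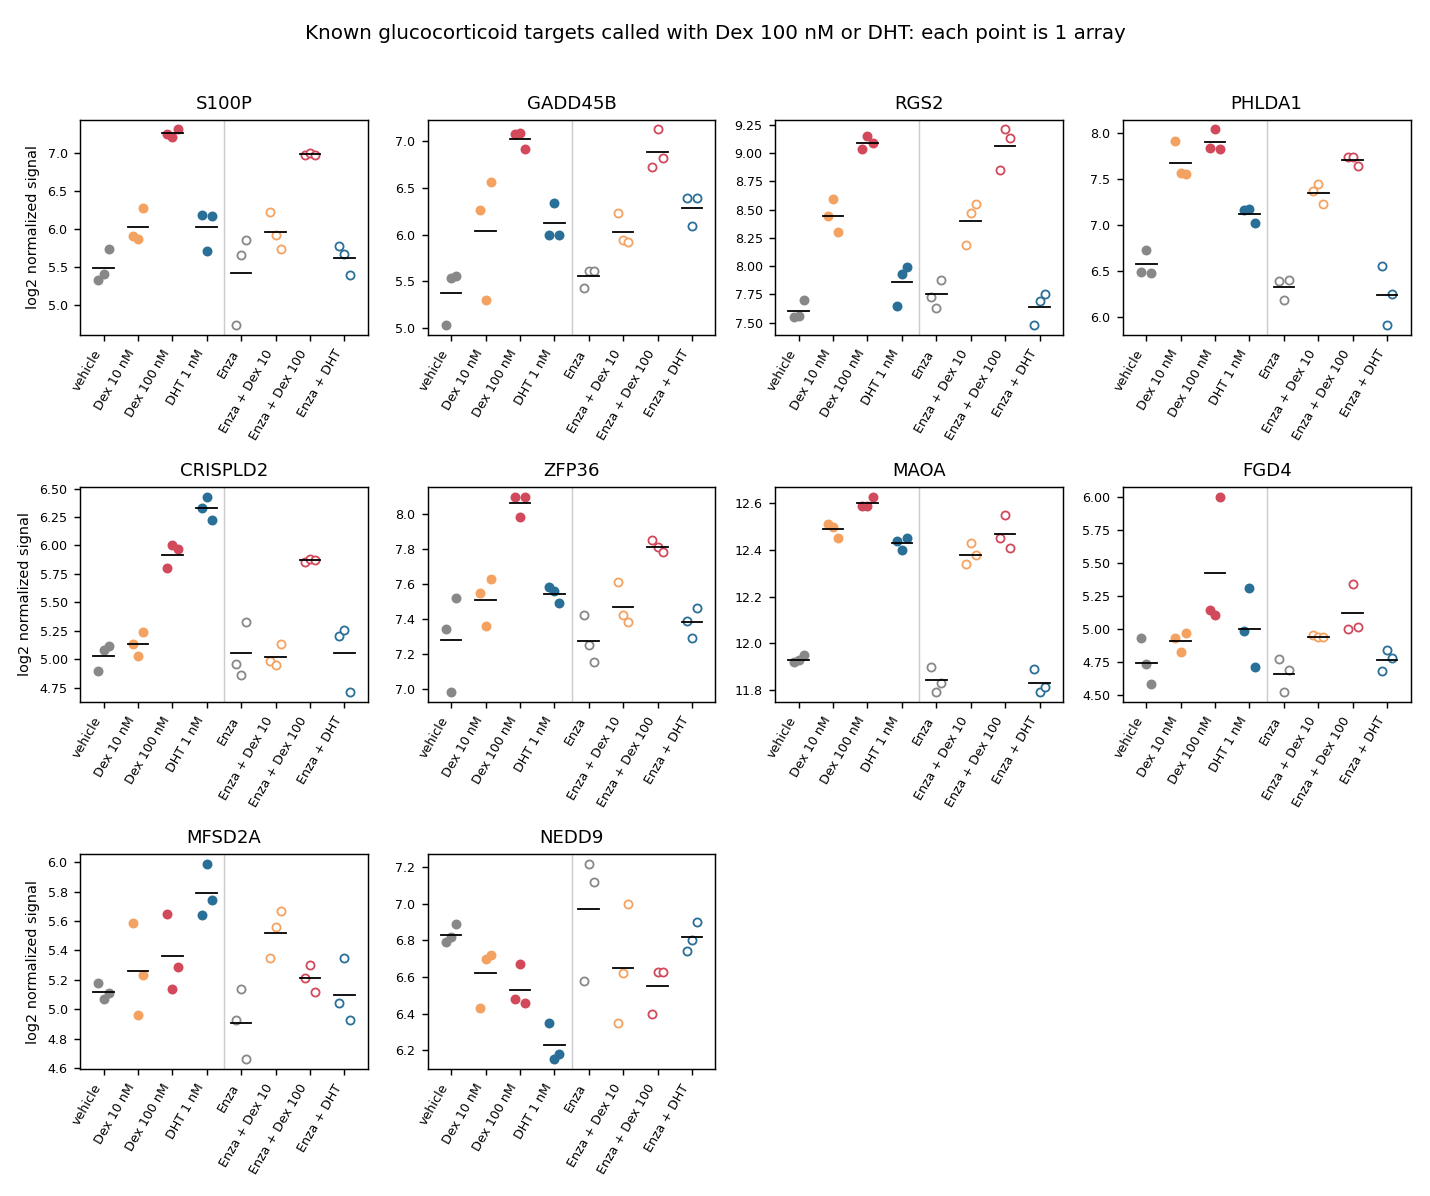
Log2 signal (vertical axis) of known targets on each of the 24 arrays, by treatment group (horizontal axis). Filled points are arrays without enzalutamide and open points arrays with it, and the black line is the mean of the group's 3 arrays. RGS2 climbs from 7.55 to 7.70 with vehicle to 9.04 to 9.15 with 100 nM Dex, and CRISPLD2 is highest with DHT, at 6.22 to 6.43.

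At 10 nM Dex, 3 known targets were higher and 1 was lower than with vehicle, where 1.36% of all genes were called higher and 0.838% lower. PHLDA1 read 7.91, 7.56 and 7.55, 2.15-fold above vehicle (log2 1.10 ± 0.13, limma adjusted p = 1.73e-05). RGS2 was 1.79-fold higher (log2 0.84 ± 0.12, limma adjusted p = 0.000153), and MAOA, at 12.51, 12.50 and 12.45, was 1.47-fold higher (limma adjusted p = 1.12e-06). All 3 were also called at 100 nM. ARHGAP35, a GTPase-activating protein that represses glucocorticoid receptor transcription, read 6.08, 6.0 and 5.68 with vehicle and 5.06, 5.32 and 4.71 with 10 nM Dex, a fall of 1.86-fold (limma adjusted p = 0.0197). A second detected probe of ARHGAP35 changed by only -0.22 ± 0.18 and was not called (limma adjusted p = 0.756). The call was also lost without vehicle replicate 1 or 2 or without 10 nM Dex replicate 1 or 3, with adjusted p up to 0.128. The ARHGAP35 probe used also read lower than vehicle in other groups. Its log2 change was -0.61 with 100 nM Dex, -0.57 with DHT and -0.72 with enzalutamide alone, none of them called. Under enzalutamide, 10 nM Dex changed it the other way, by 0.49, again without a call.

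The doses were compared directly, with 10 nM as the reference. At 100 nM 5 known targets were higher and 0 lower, against 0.582% and 0.0698% of all genes. S100P read 5.91, 5.87 and 6.28 at 10 nM and was 2.37-fold higher at 100 nM (log2 1.25 ± 0.22, limma adjusted p = 0.00552). CRISPLD2 read 5.13, 5.03 and 5.24 at 10 nM, detected on 2 of 3 arrays, and was 1.73-fold higher at 100 nM (limma adjusted p = 0.00318). RGS2 was 1.57-fold higher (limma adjusted p = 0.00681) and ZFP36 1.46-fold higher (limma adjusted p = 0.0151). GADD45B varied most at 10 nM, at 6.26, 5.30 and 6.56, and was 1.98-fold higher at 100 nM with an adjusted p of 0.0447 that did not hold without any 1 of 5 of the 6 arrays. With the title-number runs as a block that call was lost as well (limma adjusted p = 0.0701), as it was with the deposited normalized values, without a detection filter and over all kept probes. PHLDA1 and MAOA, the other genes called at both doses, were not among the 5. The RGS2 call was lost without 100 nM replicate 2 or 10 nM replicate 3, and the ZFP36 call without replicate 1 of either dose, 10 nM replicate 2 or 100 nM replicate 3. The count of 5 fell to 3 without 10 nM replicate 1 or 2 or without 100 nM replicate 1, 2 or 3, and to 1, S100P, when only these 6 arrays entered the fit.

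DHT changed 5 of the 28 known targets, 4 higher and 1 lower, against 2.45% and 1.81% of all genes. These comparisons use the same vehicle arrays as those of Dex. CRISPLD2 read 6.33, 6.43 and 6.22 with DHT, above every array of every other group, and was 2.45-fold higher than with vehicle (log2 1.29 ± 0.13, limma adjusted p = 9.19e-07). MAOA read 12.44, 12.40 and 12.45, a 1.41-fold rise (log2 0.50 ± 0.05, limma adjusted p = 2.55e-06). PHLDA1 read 7.16, 7.17 and 7.02, 1.46-fold higher (limma adjusted p = 0.0161), a call lost without vehicle replicate 1 or 3 or DHT replicate 1 or 2. MFSD2A, the transporter of lysophosphatidylcholine-bound omega-3 fatty acids, read 5.18, 5.07 and 5.11 with vehicle and 5.64, 5.99 and 5.74 with DHT, 1.59-fold higher (limma adjusted p = 0.0169), a call lost without vehicle replicate 2 or 3 or DHT replicate 2.

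NEDD9, a scaffold of focal adhesions and Src signalling, was the known target that fell with DHT, from 6.79, 6.82 and 6.89 to 6.35, 6.15 and 6.18, 1.52-fold lower (log2 -0.61 ± 0.15, limma adjusted p = 0.0233). A second NEDD9 probe changed by -0.59 ± 0.17 (limma adjusted p = 0.0902), and another, detected on 4 arrays, by -0.02 ± 0.14, and the call was lost without any 1 of the 3 vehicle arrays or without DHT replicate 2 or 3. GADD45B read 6.0, 6.34 and 6.0 with DHT, above all vehicle arrays, but its change of 0.74 ± 0.22 missed the threshold (limma adjusted p = 0.0698). RGS2, S100P and ZFP36 changed by 0.25, 0.53 and 0.26 with DHT and were not called. The calls of CRISPLD2 and MAOA held without any 1 array, whereas the count of 5 fell to 2 without DHT replicate 2 or vehicle replicate 3 and to 3 without vehicle replicate 1 or 2.

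Directly compared with DHT, 100 nM Dex gave higher levels of 6 known targets and lower levels of 0, against 1.49% and 1.12% of all genes. The doses of the hormones differ, so this sets these treatments side by side and not potencies. S100P was higher with Dex by 1.25 on the log2 scale (limma adjusted p = 0.00149), RGS2 by 1.23 (adjusted p = 7.89e-07), GADD45B by 0.91 (adjusted p = 0.029), PHLDA1 by 0.79 (adjusted p = 0.000853) and ZFP36 by 0.52 (adjusted p = 0.00983). CDKN1C, which encodes the cell cycle inhibitor p57, read 6.31, 6.58 and 6.38 with Dex and 5.64, 5.95 and 5.62 with DHT. It differed by 0.69 ± 0.15 (limma adjusted p = 0.0155), while neither its change of 0.31 with Dex nor that of -0.38 with DHT against vehicle was called. The CDKN1C call was lost without DHT replicate 1 or 3 or Dex replicate 2, and that of GADD45B without any 1 of 5 of the 6 arrays. CRISPLD2 differed by -0.40, with DHT above Dex, and was not called (limma adjusted p = 0.131), except with an offset of 50.

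Enzalutamide alone changed 0 of the 28 known targets by the limma call, and 0.0155% of all genes in either direction. At an unadjusted p under 0.05 the counts were 1 of the 28 and 1006 of all 12895 genes. Added to DHT, it changed 5 known targets, 4 lower and 1 higher, against 2.5% and 1.22% of all genes. They were the genes called with DHT against vehicle, each in the opposite direction; the DHT arrays enter both comparisons, so this is not independent evidence. CRISPLD2 read 5.2, 5.26 and 4.71 with both agents, 2.41-fold below DHT alone (log2 -1.27 ± 0.13, limma adjusted p = 1.19e-06). PHLDA1, at 6.55, 5.91 and 6.25, was 1.84-fold lower (limma adjusted p = 0.000175), and MAOA, at 11.89, 11.79 and 11.81, was 1.52-fold lower (limma adjusted p = 1.93e-07). The level of MAOA with both agents lay below that of all 3 vehicle arrays. So did its level with enzalutamide alone, at 11.90, 11.79 and 11.83, a change of -0.09 from vehicle that was not called (limma adjusted p = 0.716).

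MFSD2A read 5.04, 5.35 and 4.93 with enzalutamide and DHT, 1.61-fold lower than with DHT alone (limma adjusted p = 0.0156). NEDD9 read 6.74, 6.80 and 6.90, 1.51-fold higher (limma adjusted p = 0.0313). The second NEDD9 probe changed by 0.32 ± 0.17 and was not called (limma adjusted p = 0.581). Both calls depended on single arrays, and the count of 5 fell to 3 without replicate 1 or 3 of the combination or without DHT replicate 2. GADD45B behaved otherwise in level, at 6.39, 6.09 and 6.39 with both agents, a difference of 0.17 from DHT alone with a 95% interval of -0.29 to 0.64. Under enzalutamide, DHT changed 0 known targets against enzalutamide alone and 0% of all genes, with 1 of the 28 and 428 of all genes at an unadjusted p under 0.05.

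**Figure D3:**
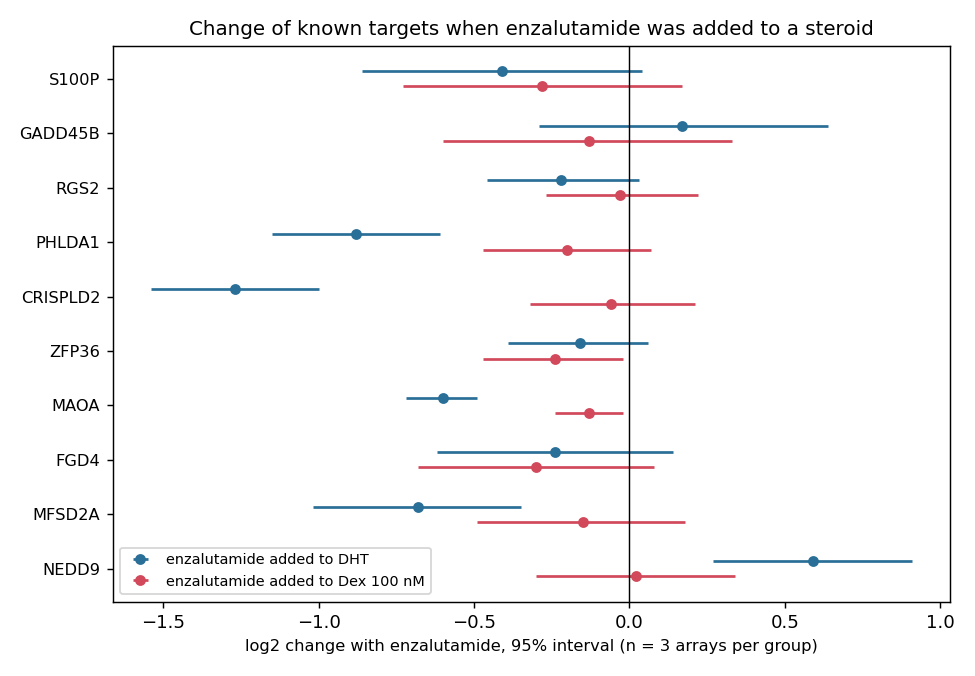
Log2 change when enzalutamide was added to DHT and when it was added to 100 nM Dex, for known targets, with 95% intervals of the limma fit over 3 arrays a group. With DHT, CRISPLD2 moved by -1.27 and MAOA by -0.60, and with Dex by -0.06 and -0.13.

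Enzalutamide added to 100 nM Dex changed 0 of the 28 known targets and 0% of all genes by the limma call, with 2 of the 28 and 1050 of all genes at an unadjusted p under 0.05. The same count was 0, and 0% of all genes, for enzalutamide added to 10 nM Dex, with 3 of the 28 and 900 of all genes at an unadjusted p under 0.05. Intervals show how much change the arrays still allow. With 100 nM Dex the log2 difference made by enzalutamide was -0.03 for RGS2 (95% interval -0.27 to 0.22), -0.06 for CRISPLD2 (-0.32 to 0.21) and -0.20 for PHLDA1 (-0.47 to 0.07). It was -0.28 for S100P (-0.73 to 0.17) and -0.13 for GADD45B (-0.60 to 0.33), with wider intervals. For ZFP36 (-0.47 to -0.02) and MAOA (-0.24 to -0.02) the unadjusted interval lay below 0, without a call after adjustment.

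The effect of enzalutamide on DHT was tested against its effect on 100 nM Dex in the same fit. It differed for 2 of the 28 known targets, both more negative with DHT, where 1.22% of all genes were called that way and 0.403% the other way. The difference of effects was -1.21 ± 0.18 for CRISPLD2 (limma adjusted p = 0.000492) and -0.47 ± 0.08 for MAOA (limma adjusted p = 0.00104). For PHLDA1 it was -0.68 ± 0.18 and missed the threshold (limma adjusted p = 0.0748). When arrays were scaled by their medians instead of by quantiles, the MAOA call was lost (limma adjusted p = 0.126) and that of CRISPLD2 remained.

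In cells treated with enzalutamide throughout, 100 nM Dex raised 7 known targets and lowered 0 against enzalutamide alone, where 2.23% of all genes were called higher and 1.18% lower. All 7 were among the 8 called without enzalutamide. The arrays of these 2 comparisons are separate, but both comparisons share the estimate of the spread from the fit to all arrays. The overlap of calls over all genes was not counted at either dose. S100P changed by 1.57 on the log2 scale, PHLDA1 by 1.39, GADD45B by 1.34, RGS2 by 1.32, CRISPLD2 by 0.82, MAOA by 0.63 and ZFP36 by 0.54. RGS2 read 7.73, 7.63 and 7.88 with enzalutamide alone and 8.85, 9.21 and 9.13 with Dex added. FGD4, the eighth gene, changed by 0.46 and was not called (limma adjusted p = 0.226). At 10 nM, Dex raised 3 known targets under enzalutamide and lowered 0, against 0.892% and 0.186% of all genes. PHLDA1 changed by 1.03 (limma adjusted p = 5.88e-05), RGS2 by 0.66 (adjusted p = 0.00288) and MAOA by 0.54 (adjusted p = 2.12e-06), the genes that were also called higher at 10 nM without enzalutamide.

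Of the 28 known targets, 12 were called in at least 1 of the 13 comparisons and 16 in none. The matching share of all genes was not counted, so these numbers describe the known targets only. The 45 calls of single genes kept their direction under every alternative tried. Their sizes moved more for dim genes such as CRISPLD2 than for bright ones such as MAOA, and the cause was not tested. Over the alternatives, the log2 change with 100 nM Dex ran from 0.51 to 1.40 for CRISPLD2, while that of RGS2 ran from 1.34 to 1.57 and that of MAOA from 0.65 to 0.68.

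The 4 response-chosen genes are described without tests, since their responses to these treatments put them in the set. SPSB1, an adaptor of an E3 ubiquitin ligase known to target inducible nitric oxide synthase, read 5.48, 5.25 and 5.14 with vehicle, 7.49, 7.66 and 7.06 with 10 nM Dex, and 7.75, 8.08 and 7.92 with 100 nM Dex. The mean was 6.17-fold above vehicle at 100 nM and 4.33-fold at 10 nM. With DHT it read 6.57, 7.02 and 6.91, 2.91-fold above vehicle, and with enzalutamide and DHT 4.69, 5.19 and 5.19, back among or below the vehicle arrays. EMP1, an epithelial membrane protein of the PMP22 family, read 4.97, 5.2 and 5.11 with vehicle, 6.48, 6.37 and 6.62 with 10 nM Dex, and 7.32, 6.97 and 7.12 with 100 nM Dex. That is 2.63-fold and 4.12-fold above vehicle, while the DHT arrays, at 5.23, 5.38 and 5.16, overlapped those of vehicle.

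PGLYRP2, an amidase that cleaves bacterial peptidoglycan, was undetected on all vehicle arrays and read 6.41, 6.27 and 6.25 with 10 nM Dex and 6.54, 6.99 and 6.60 with 100 nM Dex. These levels were at least 2.45-fold and at least 3.24-fold above vehicle. With DHT it was detected on 1 of 3 arrays. PTGER4, the prostaglandin E2 receptor EP4, read 4.81, 4.95 and 5.07 with vehicle, 5.80, 6.13 and 5.97 with 100 nM Dex and 5.75, 5.78 and 5.66 with DHT, 2.03-fold and 1.73-fold above vehicle. With 10 nM Dex it read 5.15, 5.55 and 5.25, 1.30-fold above vehicle and below every DHT array. With enzalutamide added to DHT it was undetected on all 3 arrays, at least 1.65-fold below DHT alone, and SPSB1 was 3.51-fold lower.

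With enzalutamide added to 100 nM Dex the 4 genes changed little to moderately, by -0.01 for PTGER4, -0.13 for EMP1, -0.38 for SPSB1 and -0.57 for PGLYRP2 on the log2 scale. PGLYRP2 read 6.28, 6.16 and 5.99 with both agents, all 3 below the 100 nM Dex arrays. EMP1 read 6.85, 7.05 and 7.10 and overlapped them. SPSB1 read 7.74, 7.71 and 7.17, all below 7.75, the lowest of the arrays with 100 nM Dex alone.

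**Figure D4:**
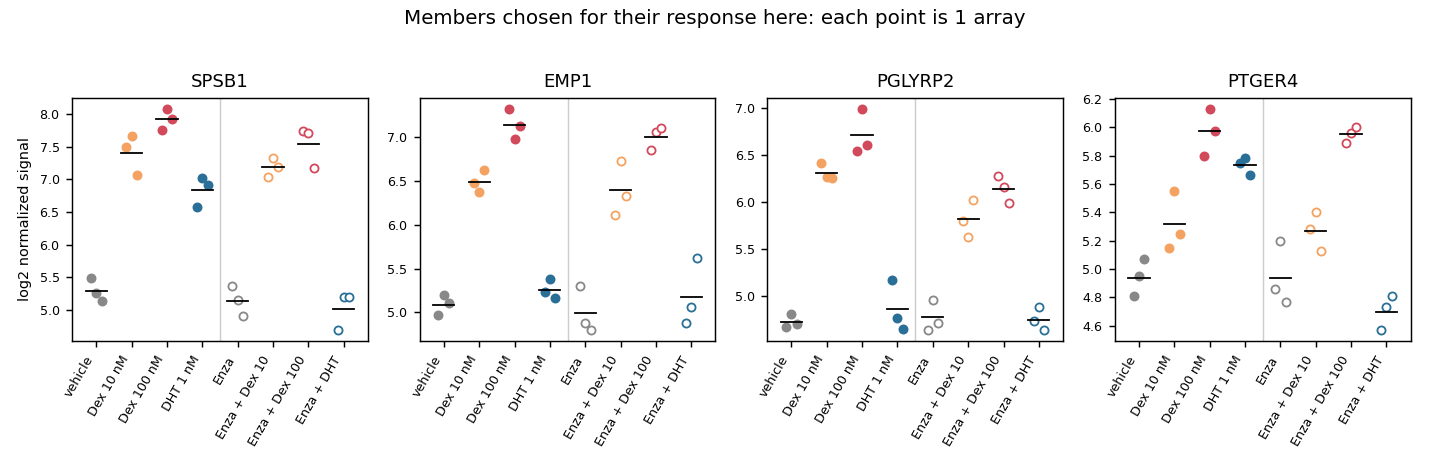
Log2 signal (vertical axis) of SPSB1, EMP1, PGLYRP2 and PTGER4 on each of the 24 arrays by treatment group (horizontal axis). Filled points are arrays without enzalutamide, open points arrays with it, and the black line is the mean of 3 arrays. EMP1, PGLYRP2 and SPSB1 are high in the 4 Dex groups, SPSB1 also with DHT alone, and PTGER4 is highest with 100 nM Dex, with or without enzalutamide, and with DHT alone.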

How the data were processed

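Total RNA was profiled on 24 Illumina beadchip arrays, 1 per culture, with no record of which arrays shared a chip in the sources used here, grouped by the treatment labels into 8 groups of 3. Per the file headers, the deposited intensity is an average over the beads of a probe, not normalized across arrays. The deposited detection p-value sets that signal against negative control beads, per the file headers, and bead numbers and bead standard errors are deposited as other columns. GenomeStudio (version not given in the sources used) is named in the submitters' processing notes. A second deposited table, of normalized intensity by an unstated method, served as an alternative.

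Signals were corrected by normexp with the detection p-values (offset 16) and quantile normalized before taking log2, in limma 3.58.1 and R 4.3.3. Of 47323 probes, 24607 were detected at p under 0.05 on at least 3 arrays; the brightest kept probe stood for each of 12895 genes. Probe symbols come from the platform annotation. A fit of 8 group means to all 24 arrays (lmFit, eBayes) gave 13 comparisons, each adjusted by Benjamini-Hochberg over all genes; a gene was called at an adjusted p under 0.05. The procedure was tested on simulated data. Where no array of a group detected a probe, folds are written "at least N-fold": each such array took its own signal or its faintest detected signal, whichever was higher.

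Members and lists were chosen with earlier results of these data known. Every called known target is named, along with the response-chosen members, the undetected members and uncalled relatives by role. Alternatives were median scaling, the deposited normalized values, an offset of 50, other detection filters, any kept probe, runs of title numbers as a block, only the arrays compared, and leaving out each array.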

Additional observations from a re-analysis of the deposited data

Results flagged for a closer look

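For 2 genes the effect of enzalutamide differed between the DHT and the 100 nM Dex cultures by the test of the difference itself, in the limma fit over 3 arrays a group. For CRISPLD2 the change with enzalutamide on DHT minus that on Dex was -1.21 on the log2 scale (adjusted p = 0.000492). For MAOA it was -0.47 (adjusted p = 0.00104).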

How the results depend on the processing

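Of 45 calls of single known targets, 33 held under all 8 settings other than leaving out single arrays. These 8 settings include the fit to only the arrays compared. Whichever 1 array was left out, 33 calls held. Of 641 alternative values, 64 missed the threshold and 0 reversed direction. When only the 6 arrays compared entered the fit, 1 known target (S100P) was called for 100 nM against 10 nM Dex, in place of 5, with fewer samples behind the spread. With median scaling, 1 known target (CRISPLD2) was called for the difference of enzalutamide effects, in place of 2, and the call of PHLDA1 with DHT was lost (limma adjusted p = 0.0594); the cause was not tested. Leaving out each array in turn gave 7 to 9 called known targets for 100 nM Dex, 3 to 5 for 10 nM Dex, 2 to 4 for DHT, 3 to 5 for enzalutamide on DHT, 3 to 3 for 10 nM and 7 to 8 for 100 nM Dex under enzalutamide, 3 to 4 between doses, 4 to 6 for Dex against DHT and 2 to 3 for the difference of effects, and 0 in the other 4 comparisons. With median scaling the median change of all genes was -0.12 for 10 nM Dex against vehicle, in place of -0.01, and 0.11 for enzalutamide on 10 nM Dex, in place of 0. It changed the share of calls that were higher over all genes from 61.8% to 19% for 10 nM Dex, from 56.8% to 47% for 100 nM Dex, from 57.6% to 46.8% for DHT, and from 82.7% to 97.7% for 10 nM Dex under enzalutamide. The sizes of the response-chosen genes depended on the processing. With 100 nM Dex the log2 change of SPSB1 was 2.63. It was 1.91 with an offset of 50 and 3.31 with the deposited normalized values. For EMP1 the same values were 2.04, 1.36 and 2.79. The labels give no replicate numbers, and the numbers used here follow accession order and pair no arrays. Residuals of arrays in the same run of title numbers correlated at a median of 0.09 and others at -0.03. With that run as a block, GADD45B was no longer called between the Dex doses, BCL2L1 was called with 100 nM Dex, and no other call of a known target changed. The changes of genes near the faintest detected signals (FGD4, CRISPLD2, MFSD2A, PGLYRP2) may be compressed, which was not tested.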
